A study of Mus musculus with 8 samples.

Results

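The 10 transcription factor genes described here are the T-box factors *Tbx21* and *Eomes*, the zinc finger repressors *Prdm1* and *Zfp683*, the Id protein gene *Id2*, the ZEB factors *Zeb1* and *Zeb2*, the basic helix-loop-helix factor *Bhlhe40* and the interferon regulatory factors *Irf4* and *Irf8*. They were chosen by symbol, and each of the 10 had 1 row among the 24303 genes of the RNA-Seq table. P14 cells are CD8 T cells whose receptor, encoded by a transgene, recognises GP33, a peptide of the virus LCMV. The cells came from spleens of uninfected P14 mice, were activated on plates coated with anti-CD3 and anti-CD28 for 2 days, pooled, and kept with IL-2 and IL-15, a protocol that all conditions shared. Effector cells received GP33 repeatedly and were collected on day 7. Acute-2d cells received no peptide after day 2, Acute-7d cells received GP33 until day 7, and T_Dysf (dysfunctional) cells received GP33 until day 19 with TGF-β1 from day 7, these 3 conditions being collected on day 19. Each condition had 2 libraries, 8 in all. The model is a culture of T cells of 1 specificity without target tissue, and peptide and TGF-β1 were present together in T_Dysf, so their parts cannot be told apart. Effector cells differed from the other conditions in the day of collection as well as in stimulation.

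T-bet, the product of *Tbx21*, and Eomes are related T-box factors that direct cytotoxic genes in CD8 T cells, and the balance between them is known to shift between effector, memory and exhausted cells. Blimp-1 (*Prdm1*) and its homolog Hobit (*Zfp683*) repress genes of tissue egress and are known for their part in tissue-resident T cells, where *Bhlhe40* also acts. Id2 binds E proteins and keeps them from DNA, Zeb2 works with T-bet in terminal effector cells while Zeb1 is linked to memory, and IRF4 and IRF8 are interferon regulatory factors induced through the T cell receptor that partner with BATF and other factors.

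The values are normalized counts, that is, read counts divided by a size factor for each library. The worth of 1 read was taken as the most frequent low non-zero value of a library, so all read numbers here are estimates. Estimated depth ranged from 19382147 to 24856195 reads assigned to genes per library. The highest estimate was that of T_Dysf replicate 1, where the fewest values lay near whole reads. A floor of 3 reads equals 2.59 to 3.35 normalized counts and covers counting error only. The lowest value of any member was *Zeb2* in Acute-2d replicate 2 at 39.0 reads, where read sampling alone gives a coefficient of variation of 16.0%, and the next lowest gene was at 109 reads or more in every library. The defining CD8 T cell genes (*Cd8a*, *Cd8b1*, *Cd3e*, *Cd3d*, *Cd3g*, *Trac*) were present in all libraries. Their summed level was 56500 to 71310 normalized counts in the Effector and Acute libraries and 120600 to 128300 in T_Dysf. *Cd4* did not exceed 13.04, but some other genes of the CD4 T cell list were higher, so *Cd4* alone does not describe that list. Both Effector libraries and Acute-7d replicate 1 carry the prefix RESUB in their labels, the meaning of which is not given. These 3 libraries had *Xist* at 53.5 to 115 normalized counts and the Y-linked *Ddx3y* at 1334 to 2161, against *Xist* at 21871 to 30427 and *Ddx3y* at no more than 2.59 in the other 5. Effector and both T_Dysf and Acute-2d are therefore separated by prefix and mouse sex, and only Acute-7d has a library on each side. A model term for the prefix thus rests on the difference between the 2 Acute-7d libraries. It cannot adjust T_Dysf against Acute-2d, where no library has the prefix. The 3 libraries and the other 5 cannot have come from 1 pool of cells. In T_Dysf replicate 1, 138 table entries lay under 3 reads in that library alone, and none of the 10 genes is among them.

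Per kb of exon, *Id2* and *Bhlhe40* were the most abundant members in every condition. In T_Dysf, *Id2* averaged 5821 and *Bhlhe40* 3144 normalized counts per kb of exon, followed by *Irf8* at 547, *Tbx21* at 451, *Irf4* at 311, *Eomes* at 244, *Zfp683* at 197, *Prdm1* at 174, *Zeb1* at 68.5 and *Zeb2* at 7.99. In Effector cells the order after *Id2* (2647 per kb) and *Bhlhe40* (1391) was *Tbx21* at 922, *Irf4* at 766, *Eomes* at 413, *Irf8* at 348, *Zfp683* at 209, *Prdm1* at 154, *Zeb1* at 66.9 and *Zeb2* at 8.08. On the scale per kb, *Irf8* thus came after *Id2* and *Bhlhe40* in T_Dysf, and after those and *Tbx21*, *Irf4* and *Eomes* in Effector cells. The lengths join all annotated exons of a gene and are not those of the transcripts counted, so the order between genes depends on them. Not divided by length, *Irf8* averaged 2457 in Effector cells, above *Tbx21* at 2293 and *Eomes* at 1714 and below *Irf4* at 3757. All other levels below are normalized counts of a gene, not divided by length.

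**Figure D1:**
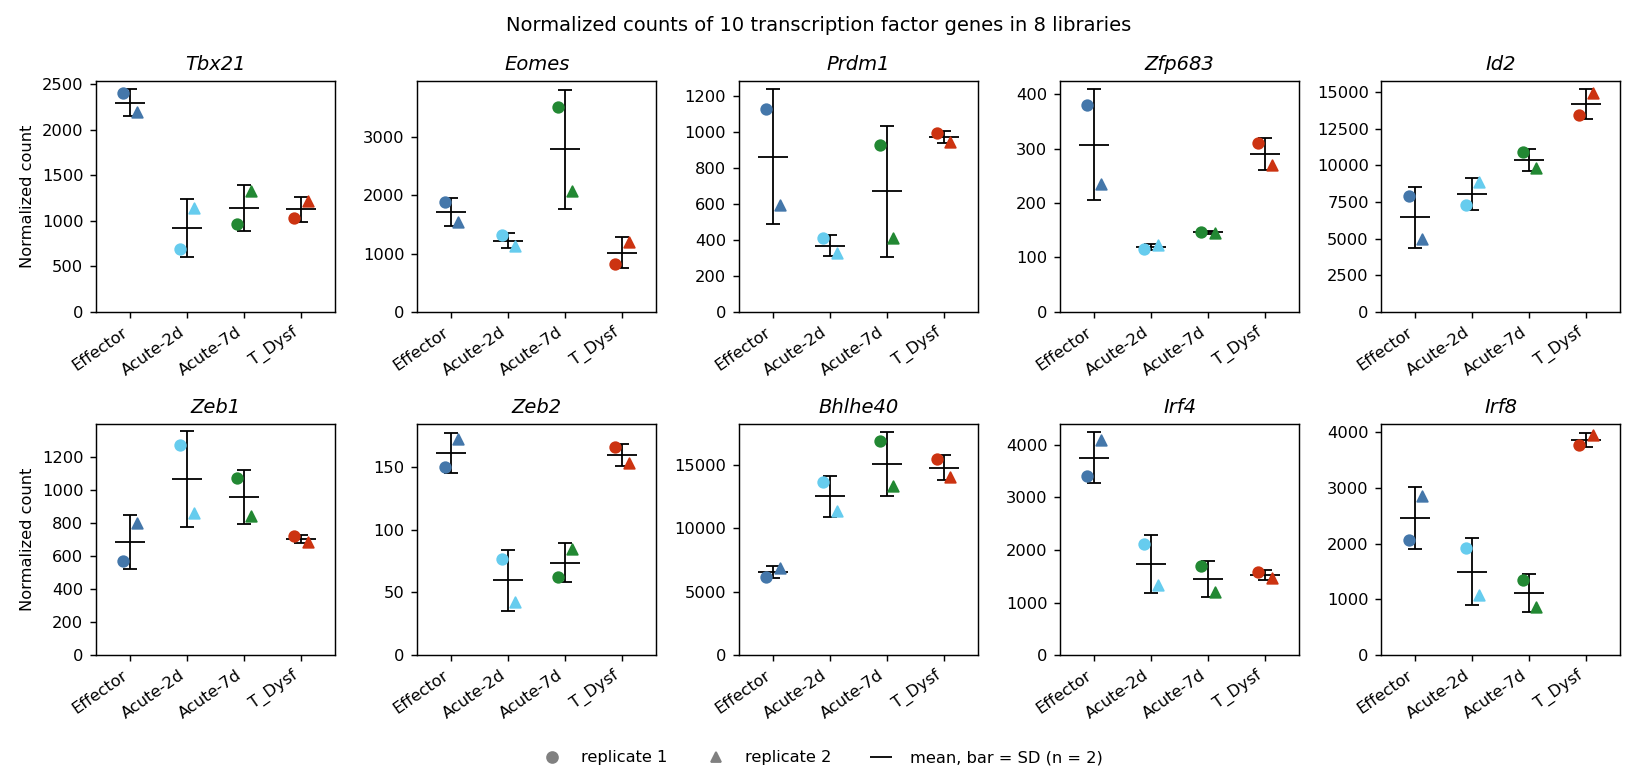
Normalized counts (y axis, linear, from 0) of the 10 transcription factor genes in the 2 libraries of each condition (circle, replicate 1, and triangle, replicate 2), with the mean and SD as a line and bar. Irf8 is highest in both T_Dysf libraries (3775 and 3946), Irf4 and Tbx21 are highest in both Effector libraries, and Id2 is highest in both T_Dysf libraries.

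The 10 genes were tested in 6 comparisons between conditions. The test was limma on log2(normalized count + 1) over all genes, and a gene was called when it differed by 2-fold or more with an adjusted p (Benjamini-Hochberg) below 0.05. Between T_Dysf and Acute-7d, 1 of 10 members was called higher in T_Dysf (*Irf8*), where 2.54% of all genes were called higher and 3.03% lower. Between T_Dysf and Acute-2d, 1 of 10 was called higher (*Zfp683*), against 3.14% of all genes higher and 4.21% lower. Between T_Dysf and Effector, 2 were called higher (*Id2*, *Bhlhe40*) and 1 lower (*Irf4*), against 4.47% and 4.75% of all genes. Between Effector and Acute-7d, 1 was called higher in Effector (*Irf4*) and 1 lower (*Bhlhe40*), against 4.18% and 3.88%. Between Effector and Acute-2d, 3 were called higher in Effector (*Tbx21*, *Zfp683*, *Zeb2*), against 4.31% higher and 4.48% lower. Between Acute-7d and Acute-2d, limma called 0 of 10, with 1 member (*Eomes*) under an unadjusted p of 0.05 and 0 called by limma-voom, where 0.0782% of all genes were higher and 0.0905% lower. With 10 genes, 1 call is 10% of the members, so single calls say little against these shares. The comparisons share libraries and are not independent of each other.

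The study's methods name a limit of 50 on the highest value of a gene, applied before normalization. Keeping only genes whose highest library reached 50 normalized counts left 13175 genes and all 10 members. The adjustment then ran over fewer genes and more members were called. There were 2 members called between T_Dysf and Acute-7d (*Eomes* lower, *Irf8* higher) where 13.0% of these genes were called in either direction, 4 between T_Dysf and Acute-2d (*Prdm1*, *Zfp683*, *Zeb2*, *Irf8*, all higher) beside 15.1%, and 4 between T_Dysf and Effector (*Id2* and *Bhlhe40* higher, *Tbx21* and *Irf4* lower) beside 19.2%. Between Effector and Acute-7d, 6 members were called (*Tbx21*, *Zfp683*, *Zeb2*, *Irf4* and *Irf8* higher in Effector, *Bhlhe40* lower) beside 16.5%. Between Effector and Acute-2d, 4 were called (*Tbx21*, *Zfp683*, *Zeb2*, *Irf4*, all higher) beside 18.0%, and none between Acute-7d and Acute-2d beside 0.00759%. The median log2 fold change of the 10 genes was 0.95 in Effector against Acute-2d, 0.71 in Effector against Acute-7d, 0.57 in T_Dysf against Acute-2d, 0.27 in T_Dysf against Acute-7d, 0.32 in Acute-7d against Acute-2d and 0.02 in T_Dysf against Effector, where the median over all genes was 0 in each.

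**Figure D2:**
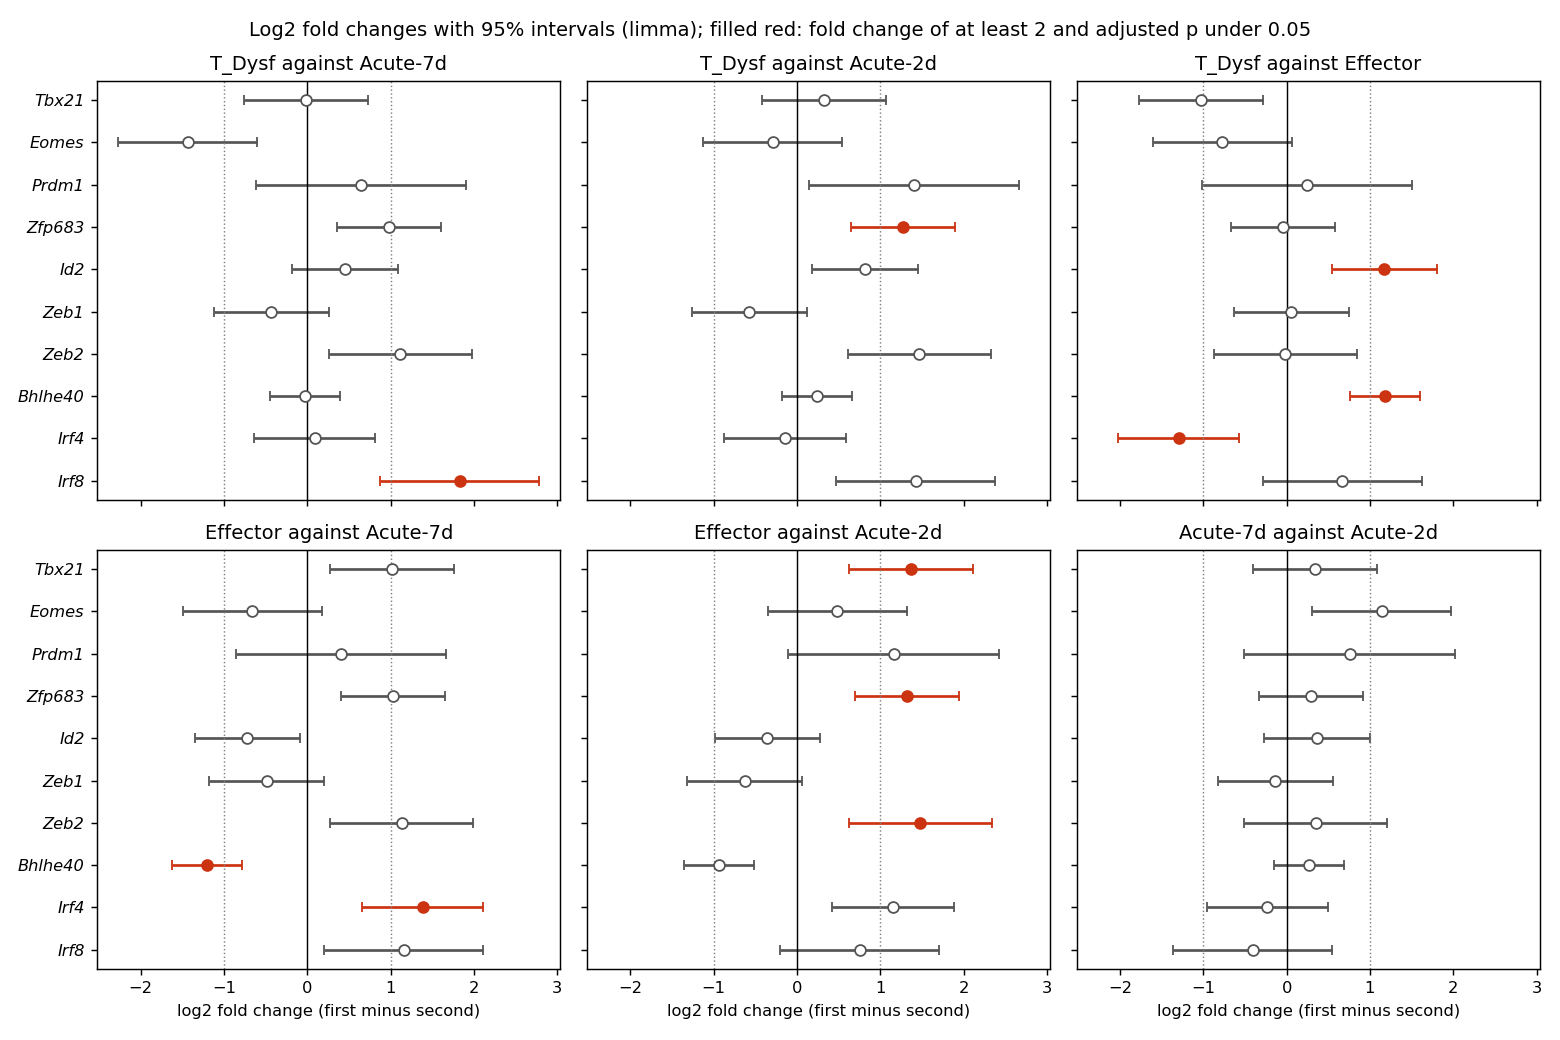
Log2 fold changes (x axis) of the 10 genes in the 6 comparisons, with 95% confidence intervals from limma. Filled red points mark a fold change of at least 2 with an adjusted p under 0.05, and dotted lines mark a 2-fold change. Irf8 lies furthest to the right in T_Dysf against Acute-7d (1.83), and no member is filled in Acute-7d against Acute-2d.

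*Irf8*, known in T cells for cytotoxic effector differentiation and elsewhere for dendritic and B cells, was highest in T_Dysf. The gene lies on the plus strand of chromosome 8 (GRCm38, chr8:120736358-120756694). The 2 T_Dysf libraries held 3775 and 3946 normalized counts, the Effector libraries 2066 and 2848, the Acute-2d libraries 1918 and 1076, and the Acute-7d libraries 1354 and 870. Both T_Dysf libraries lay above all 6 others, both Effector libraries lay above all 4 Acute libraries, and Acute-2d and Acute-7d overlapped. *Irf8* rose 3.55-fold from Acute-7d to T_Dysf (log2 fold change 1.83, SE 0.37, limma adjusted p = 0.0495). The log2 fold change was 1.43 against Acute-2d (SE 0.37, adjusted p = 0.0780) and 0.67 against Effector (SE 0.37, adjusted p = 0.295), neither of which passed over all genes. The call against Acute-7d was lost without any one of the 8 libraries, with an adjusted p between 0.0543 without Acute-2d replicate 2 and 0.186 without T_Dysf replicate 1, and a log2 fold change between 1.51 and 2.15. Against Acute-7d replicate 2, which like T_Dysf has no RESUB prefix, the difference was 2.15 on the log2 scale. With a term for the prefix, which gave this same difference, the limma adjusted p was 0.113.

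*Irf8* is also active in B, myeloid and dendritic cells. The B cell gene *Ms4a1* did not exceed 13.04 normalized counts in any library, and the dendritic cell gene *Clec9a* was at or under 3 reads in all. The myeloid gene *Csf1r* was at 21.01 and 18.0 in T_Dysf and at 6.49 to 20.9 elsewhere, and *Xcr1* at 391 and 299.8 in T_Dysf and at 101 to 546 elsewhere. The summed level of the 6 myeloid genes was 340 to 371 in T_Dysf and 271 to 659 elsewhere, and that of the dendritic cell list was 450 to 572 against 546 to 2018, with 5 of its 6 genes in the table. The part of these genes in the *Irf8* values was not tested.

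*Irf4*, which rises with the strength of T cell receptor signalling and supports clonal expansion, was highest in Effector cells. The gene is on the plus strand of chromosome 13 (chr13:30749226-30766976). The Effector libraries held 3418 and 4097 normalized counts, the Acute-2d libraries 2117 and 1334, the Acute-7d libraries 1694 and 1208, and the T_Dysf libraries 1588 and 1462. Both Effector libraries lay above the other 6, and the 3 day 19 conditions overlapped. *Irf4* fell by 1.30 on the log2 scale from Effector to T_Dysf (SE 0.28, limma adjusted p = 0.0432) and was higher in Effector than in Acute-7d by 1.39 (SE 0.28, adjusted p = 0.0389). Against Acute-2d the difference was 1.15 (SE 0.28, adjusted p = 0.0564). T_Dysf cells, still receiving peptide on day 19, differed from the peptide-free Acute-7d cells by 0.09 (SE 0.28, adjusted p = 0.932) and from Acute-2d by -0.14 (adjusted p = 0.827). Both calls of *Irf4* held only when Acute-2d replicate 1 or 2 was left out. Without any one of the other 6 libraries the adjusted p reached 0.0634 to 0.164 against T_Dysf and 0.0805 to 0.147 against Acute-7d. Within the prefix, the Effector mean exceeded Acute-7d replicate 1 by 1.14 on the log2 scale, and with a prefix term the adjusted p was 0.134. The prefix term moved the T_Dysf value to -0.81 (adjusted p = 0.442).

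The ratio of *Irf4* to *Irf8* within a library does not depend on the size factor. Its log2 was -1.25 and -1.43 in the T_Dysf libraries, 0.73 and 0.52 in the Effector libraries, 0.32 and 0.47 for Acute-7d, and 0.14 and 0.31 for Acute-2d. It was above 0 in all 6 other libraries and below 0 in both T_Dysf libraries. On a linear scale the mean ratio was 0.395 for T_Dysf, 1.54 for Effector, 1.32 for Acute-7d and 1.17 for Acute-2d. With 2 libraries against 2, an exact permutation test cannot pass 0.05, so the ratios are given without a test.

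**Figure D3:**
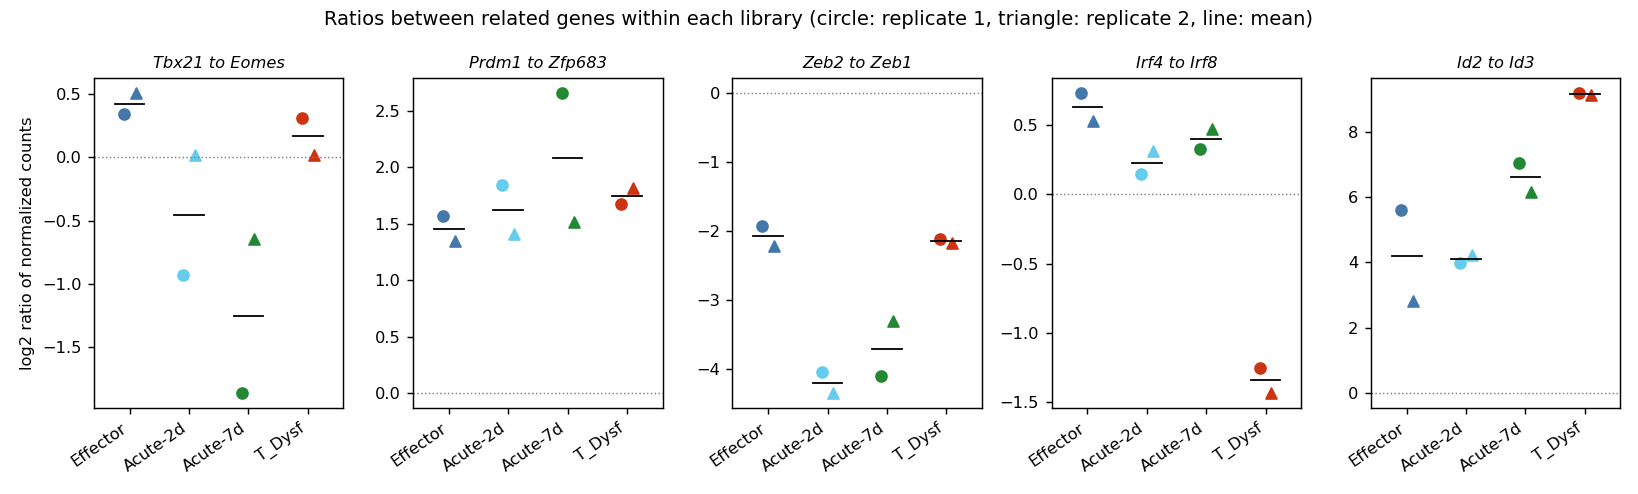
Log2 ratio of the normalized counts of 5 gene pairs (y axis) in each library of the 4 conditions (circle, replicate 1, triangle, replicate 2, line, mean). The Irf4 to Irf8 ratio is below 0 in T_Dysf only (-1.25 and -1.43), the Zeb2 to Zeb1 ratio of T_Dysf matches that of Effector, and the Id2 to Id3 ratio is highest in T_Dysf.

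Blimp-1 and Hobit, the paired repressors of egress genes in the residency programme, had higher mean counts in T_Dysf and Effector than in the Acute conditions. *Zfp683* lies on the plus strand of chromosome 4 (chr4:134053838-134058996). The T_Dysf libraries held 310 and 270 normalized counts, the Effector libraries 379 and 235, the Acute-2d libraries 115 and 123, and the Acute-7d libraries 147 and 144. All 4 T_Dysf and Effector libraries lay above all 4 Acute libraries, T_Dysf lay between the 2 Effector libraries, and Acute-7d lay just above Acute-2d. *Zfp683* rose 2.42-fold from Acute-2d to T_Dysf (log2 fold change 1.28, SE 0.24, limma adjusted p = 0.0358) and was 2.50-fold higher in Effector than in Acute-2d (1.32, SE 0.24, adjusted p = 0.0301). Against Acute-7d the log2 fold change was 0.98 for T_Dysf (SE 0.24, adjusted p = 0.0772) and 1.03 for Effector (SE 0.24, adjusted p = 0.0533). Between T_Dysf and Effector it was -0.04, with an interval of the difference that includes 0.

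The *Zfp683* calls were lost in some fits that left out 1 library. Leaving out an Acute-7d library left the log2 fold changes against Acute-2d unchanged (1.28 for T_Dysf, 1.32 for Effector), with fewer residual degrees of freedom. For T_Dysf against Acute-2d, a comparison within the libraries without the prefix, the call held without Effector replicate 1 or 2 and was lost without each of the other 6, with an adjusted p of 0.0784 to 0.164, while the log2 fold change stayed between 1.17 and 1.38. For Effector against Acute-2d it held only without Effector replicate 2, and the log2 fold change dropped to 0.98 without Effector replicate 1. Without the Acute-2d, Acute-7d or T_Dysf libraries in turn the adjusted p was 0.0645 to 0.125. Against the Acute-7d library of their own prefix, the T_Dysf mean was higher by 0.998 and the Effector mean by 1.01 on the log2 scale. With the prefix term the log2 fold change against Acute-2d was 1.28 for T_Dysf and 1.29 for Effector (limma adjusted p = 0.0788 and 0.262). As no T_Dysf or Acute-2d library has the prefix, the term could not adjust the T_Dysf value.

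*Prdm1* is on the minus strand of chromosome 10 (chr10:44437177-44528501). It had 994 and 947 normalized counts in T_Dysf, 1127 and 596 in Effector cells, 411 and 326 in the Acute-2d libraries, and 927 and 413 in the Acute-7d libraries. Both T_Dysf libraries lay above all 4 Acute libraries, but the replicates of Effector and of Acute-7d were far apart. Its SE of 0.49 was the widest of the 10 genes, and no comparison passed over all genes. The log2 fold change of T_Dysf was 1.40 against Acute-2d (adjusted p = 0.147), 0.65 against Acute-7d (adjusted p = 0.468) and 0.24 against Effector (adjusted p = 0.824). Among the genes that reached 50 normalized counts, the difference from Acute-2d passed with an adjusted p of 0.0413. In both Effector and Acute-7d, replicate 1 was the higher library. T_Dysf exceeded Acute-7d replicate 2 by 1.23 and Acute-7d replicate 1 by 0.06 on the log2 scale.

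*Prdm1* and *Irf4* are also plasma cell genes, and some plasma cell markers moved with T_Dysf. *Igha* was at 1086 and 1154 normalized counts in the T_Dysf libraries and at no more than 9.03 elsewhere, *Jchain* at 236 and 275 against 7.37 or less, and *Sdc1* at 113 and 148 against 19.1 or less. *Xbp1* was at 1406 to 2181 in all 8 libraries, the summed list (4 of 5 genes in the table) was 3508 to 3645 in T_Dysf and 1437 to 2200 elsewhere, and *Cd79a* did not exceed 21.4. The part of these markers in the *Prdm1* values was not tested. In RNA of sorted bulk cells, a change in how many cells express a gene and a change in the RNA per cell cannot be told apart.

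T-bet and Eomes had different orders over the conditions. *Tbx21* is on the minus strand of chromosome 11 (chr11:97098071-97115331). The Effector libraries held 2398 and 2189 normalized counts, those of Acute-2d 694 and 1141, those of Acute-7d 964 and 1323, and those of T_Dysf 1028 and 1218. Both Effector libraries lay above the other 6, and the day 19 conditions overlapped. *Tbx21* was 2.57-fold higher in Effector than in Acute-2d (log2 fold change 1.36, SE 0.29, limma adjusted p = 0.0409). The difference of Effector from Acute-7d was 1.02 (SE 0.29, adjusted p = 0.0821) and that of T_Dysf from Effector was -1.03 (SE 0.29, adjusted p = 0.0786). T_Dysf differed from Acute-7d by -0.01 (SE 0.29, adjusted p = 1). The call against Acute-2d held only without Acute-2d replicate 2. It was lost without each of the other 7 libraries, with an adjusted p of 0.0646 to 0.127 and a log2 fold change of 1.005 or more. Within the prefix, Effector exceeded Acute-7d replicate 1 by 1.25, and with the prefix term the Acute-2d comparison had an adjusted p of 0.179.

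*Eomes*, on the plus strand of chromosome 9 (chr9:118478212-118486132), had its highest mean in Acute-7d. In the Acute-7d libraries it was at 3510 and 2071 normalized counts, in those of Effector at 1887 and 1542, in those of Acute-2d at 1321 and 1127, and in those of T_Dysf at 828 and 1202. Both Acute-7d libraries lay above all 6 others, both Effector libraries lay above Acute-2d and T_Dysf, and those overlapped. The log2 fold change of T_Dysf against Acute-7d was -1.43 (SE 0.32, adjusted p = 0.0635), which did not pass over all genes and passed among the genes that reached 50 normalized counts (adjusted p = 0.0113). Acute-7d and Acute-2d differed by 1.14 (SE 0.32, adjusted p = 0.528), T_Dysf and Effector by -0.77 (adjusted p = 0.182), and T_Dysf and Acute-2d by -0.29 (adjusted p = 0.631). T_Dysf was lower than Acute-7d replicate 2 by a log2 difference of -1.05, and Effector was lower than Acute-7d replicate 1 by -1.04.

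*Eomes* is also an NK cell gene. The summed NK cell list (*Ncr1*, *Klrb1c*, *Klra8*, *Tyrobp*) was highest in Acute-7d, at 1051 and 1548 normalized counts, against 445 to 470 in Acute-2d, 280 to 612 in Effector and 478 to 759 in T_Dysf. *Klrb1c* was at 1005 and 1384 in Acute-7d and at 243 to 551 elsewhere, and the defining *Ncr1* at 30.1 and 105 against 1.78 to 24.8. *Tyrobp* was highest in T_Dysf, at 230 and 208 against 13.4 to 50.5 elsewhere, and *Klra8* did not exceed 8.08 in any library. The part of these genes in the *Eomes* values was not tested. The log2 ratio of *Tbx21* to *Eomes* was 0.35 and 0.51 for Effector, 0.31 and 0.02 for T_Dysf, -0.93 and 0.02 for Acute-2d, and -1.86 and -0.65 for Acute-7d. The ratio was lowest in Acute-7d replicate 1 and above 0 in all 4 libraries of Effector and T_Dysf.

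Promoter windows of RefSeq (GRCm38.p6, 250 bases before to 50 after a start) were at hand for 7 of the 10 genes, in 11 windows. None was at hand for *Zfp683*, *Zeb1* and *Bhlhe40*, and *Zeb2* alone had 4, some of them overlapping. They were searched on both strands for TCACACC, a T-box motif, CACCTG, the E-box bound by ZEB and E proteins, CACGTG, the E-box of the BHLHE40 type, and GAAANNGAA, the core of an interferon response element. CACCTG was found in 3 of the 11 windows (of *Tbx21*, *Prdm1* and *Irf8*) beside 20.2% of all 32851 windows, and GAAANNGAA in 1 (of *Eomes*) beside 8.56%. By gene, CACCTG was found in 3 of 7, and none of the *Zeb2* windows held a match. The T-box motif, held by 3.98% of all windows, and the CACGTG E-box, held by 7.15%, were in none of the members' windows. No matches overlapped. The 4 windows that hold a match are shown because they place letters known to be bound by one family of members, ZEB factors or IRFs, at the start of another member. Each runs 5′ to 3′ on the strand of the gene, with the match in capitals. CACCTG reads CAGGTG here, since the match is on the other strand.
*Tbx21* (chr11:97115282-97115581, minus strand, match from -196): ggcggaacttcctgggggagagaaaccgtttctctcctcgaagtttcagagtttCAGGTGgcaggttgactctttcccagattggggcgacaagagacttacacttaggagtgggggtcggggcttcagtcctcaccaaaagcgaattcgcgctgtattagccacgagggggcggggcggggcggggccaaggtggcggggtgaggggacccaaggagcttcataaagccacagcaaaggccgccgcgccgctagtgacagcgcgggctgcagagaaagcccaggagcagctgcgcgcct
*Prdm1* (chr10:44458699-44458998, minus strand, match from -87): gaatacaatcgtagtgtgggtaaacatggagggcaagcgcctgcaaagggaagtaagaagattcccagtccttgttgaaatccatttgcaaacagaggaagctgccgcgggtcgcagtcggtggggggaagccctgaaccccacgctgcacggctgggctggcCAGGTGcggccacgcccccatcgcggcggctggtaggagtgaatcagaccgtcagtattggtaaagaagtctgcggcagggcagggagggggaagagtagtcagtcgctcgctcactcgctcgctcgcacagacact
*Irf8*, second of its 2 windows (chr8:120738389-120738688, plus strand, match from -205): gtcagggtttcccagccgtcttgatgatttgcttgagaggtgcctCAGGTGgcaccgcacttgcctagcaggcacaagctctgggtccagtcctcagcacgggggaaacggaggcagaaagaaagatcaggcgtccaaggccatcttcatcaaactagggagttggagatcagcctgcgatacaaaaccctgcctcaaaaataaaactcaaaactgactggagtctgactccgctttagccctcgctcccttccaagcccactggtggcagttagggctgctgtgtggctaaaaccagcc
*Eomes* (chr9:118477939-118478238, plus strand, match from -154): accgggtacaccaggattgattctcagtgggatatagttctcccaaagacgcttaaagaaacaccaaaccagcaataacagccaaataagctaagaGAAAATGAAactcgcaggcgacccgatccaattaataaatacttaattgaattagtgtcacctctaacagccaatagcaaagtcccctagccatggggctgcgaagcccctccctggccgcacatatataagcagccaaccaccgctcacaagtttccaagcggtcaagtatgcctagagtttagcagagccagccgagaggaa
A match is a description of the letters in this window and says nothing about binding in these cells. The genes with the E-box match did not share an order over the conditions, *Tbx21* being highest in Effector and *Irf8* in T_Dysf.

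*Zeb2*, a repressor needed for terminal effector differentiation, separated Effector and T_Dysf from the Acute conditions. The gene is on the minus strand of chromosome 2 (chr2:44983632-45117395) and was the least abundant member per kb. *Zeb2* was at 150 and 172 normalized counts in the Effector libraries, 166 and 153 in those of T_Dysf, 76.9 and 42.1 in those of Acute-2d, and 62.5 and 84.8 in those of Acute-7d. All 4 Effector and T_Dysf libraries lay above all 4 Acute libraries, Effector overlapped T_Dysf, and Acute-2d overlapped Acute-7d. *Zeb2* was 2.79-fold higher in Effector than in Acute-2d (log2 fold change 1.48, SE 0.33, limma adjusted p = 0.0470). The log2 fold change was 1.47 for T_Dysf against Acute-2d (SE 0.33, adjusted p = 0.0563), 1.12 for T_Dysf against Acute-7d (adjusted p = 0.116) and 1.13 for Effector against Acute-7d (adjusted p = 0.0896). The call was lost without any one of the 8 libraries, with an adjusted p between 0.0541 without Acute-2d replicate 1 and 0.170 without Effector replicate 2. The log2 fold change was 1.05 without Acute-2d replicate 2, the library at 39.0 reads. Compared with the Acute-7d library of their own prefix, T_Dysf was higher by 0.90 and Effector by 1.35, and with the prefix term the adjusted p against Acute-2d was 0.215 for Effector.

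*Zeb1*, on chromosome 18 (chr18:5591860-5775467, plus strand), had the reverse order in its means, and no comparison passed. Its normalized counts were 572 and 803 in Effector, 719 and 688 in T_Dysf, 1272 and 860 in Acute-2d, and 1074 and 841 in Acute-7d. All 4 Acute libraries lay above all 4 Effector and T_Dysf libraries, by as little as 841 against 803. The log2 fold change of T_Dysf was -0.57 against Acute-2d (adjusted p = 0.252) and -0.43 against Acute-7d (adjusted p = 0.384), and that of Effector was -0.63 against Acute-2d (adjusted p = 0.196). The log2 ratio of *Zeb2* to *Zeb1* was -1.93 and -2.22 in Effector, -2.12 and -2.17 in T_Dysf, -4.05 and -4.35 in Acute-2d, and -4.10 and -3.31 in Acute-7d. The 4 Effector and T_Dysf libraries were within 0.3 of each other, and all Acute libraries lay more than 1 lower.

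*Id2*, the E protein antagonist linked to effector and resident cells, was highest in T_Dysf. The gene is on the minus strand of chromosome 12 (chr12:25093799-25097140). The T_Dysf libraries held 13461 and 14925 normalized counts, those of Acute-7d 10919 and 9825, those of Acute-2d 7301 and 8842, and those of Effector 7911 and 4997. Both T_Dysf libraries lay above all others, both Acute-7d libraries lay above Acute-2d, and Acute-2d overlapped Effector. *Id2* rose 2.25-fold from Effector to T_Dysf (log2 fold change 1.17, SE 0.24, limma adjusted p = 0.0392). The differences of T_Dysf were 0.82 from Acute-2d (SE 0.24, adjusted p = 0.107) and 0.45 from Acute-7d (SE 0.24, adjusted p = 0.325). The call held only without Effector replicate 1. Without Effector replicate 2, the lowest library, the log2 fold change was 0.84 (adjusted p = 0.0668), and without each of the other 6 the adjusted p was 0.0723 to 0.140. T_Dysf and Effector lie on different sides of the prefix, and with its term the value was 1.32 (adjusted p = 0.262).

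Its relative *Id3*, which marks less differentiated and memory precursor cells, went the other way between T_Dysf and the early-rested cells. The *Id3* level was 23.3 and 26.7 normalized counts for T_Dysf, 82.6 and 137 for Acute-7d, 467 and 474 in Acute-2d, and 164 and 708 in Effector. The log2 ratio of *Id2* to *Id3* was 9.17 and 9.13 in T_Dysf, 7.05 and 6.16 in Acute-7d, 3.97 and 4.22 in Acute-2d, and 5.60 and 2.82 in Effector. T_Dysf had the highest ratio in both libraries, Acute-7d the next, and Acute-2d lay between the widely spaced Effector libraries.

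*Bhlhe40*, a factor of cytokine production and of mitochondrial fitness in resident and tumour T cells, was lowest in Effector cells. The gene lies on the plus strand of chromosome 6 (chr6:108660629-108666925). Effector libraries held 6191 and 6900 normalized counts, Acute-2d libraries 13665 and 11388, Acute-7d libraries 16906 and 13335, and T_Dysf libraries 15501 and 14087. Both Effector libraries lay below the other 6, Acute-7d overlapped Acute-2d and T_Dysf, and T_Dysf lay above Acute-2d. *Bhlhe40* rose 2.26-fold from Effector to T_Dysf (log2 fold change 1.18, SE 0.16, limma adjusted p = 0.0151), and Effector was lower than Acute-7d by a log2 fold change of -1.20 (SE 0.16, adjusted p = 0.0195). Against Acute-2d the value of -0.93 had an adjusted p of 0.0275 but was under the fold change of 2. T_Dysf differed from Acute-7d by -0.02 (SE 0.16, adjusted p = 1).

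The *Bhlhe40* calls were the steadiest of the 10 genes. T_Dysf against Effector was called in 6 of 8 fits that left out 1 library, and was lost without Effector replicate 2 (adjusted p = 0.0505) and without T_Dysf replicate 1 (adjusted p = 0.0880). Effector against Acute-7d was called in 4 of 8, and was lost without Effector replicate 2 (adjusted p = 0.0572), Acute-7d replicate 1 (0.0817), T_Dysf replicate 1 (0.0530) and T_Dysf replicate 2 (0.0532). Within the prefix, Effector was lower than Acute-7d replicate 1 by a log2 difference of -1.37, and that call held with the prefix term. With the term, the difference of T_Dysf from Effector was 1.52 (adjusted p = 0.0908).

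Other genes of these pathways were followed in 5 lists, read beside 2.54% of all genes called higher and 3.03% lower in T_Dysf against Acute-7d. The lists were chosen with earlier results of these data known, so their counts are a description. From these libraries the study had reported *Klf2*, *S1pr1*, *Ccr7*, *Tcf7* and *Cxcr3* higher in acutely stimulated cells, and *Itgae* higher in T_Dysf. Of 9 measured genes of egress and circulation, which Blimp-1 and Hobit are known to repress or which oppose residency, 8 fell in T_Dysf against Acute-7d and 7 against each of Acute-2d and Effector. The medians were -4.32, -4.52 and -3.93 on the log2 scale. *Tcf7*, the gene of the memory factor TCF-1, fell from 8890 ± 1557 to 141 ± 27.4 normalized counts (SD, n = 2, log2 fold change -5.97, limma adjusted p = 0.0114), and *Rasgrp2*, an activator of RAP1, from 3333 ± 215 to 1595 ± 43.9 (-1.06, adjusted p = 0.00945). Leaving out 1 library gave 5 to 8 calls against Acute-7d, the lowest count being without Acute-7d replicate 1 and without T_Dysf replicate 1. The prefix term reduced the 8 calls against Acute-7d to 5 and the 7 against Effector to 3. Over all genes and both directions, it took the calls against Acute-7d from 1353 to 541. Against Acute-2d they went from 1787 to 1378, and against Effector from 2241 to 386. The same totals stand beside the other lists below.

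Of 14 residency genes, 4 rose in T_Dysf against Acute-7d (*Itgae*, *Itga1*, *Hpgds*, *Litaf*), 4 against Acute-2d and 8 against Effector, with medians of 1.20, 1.30 and 2.64. *Itgae*, the gene of CD103, which TGF-β1 is known to induce, went from 72.6 ± 1.63 to 39141 ± 1861 normalized counts (SD, n = 2, log2 fold change 9.05, limma adjusted p = 0.000385). *Itga1*, the gene of CD49a, went from 2477 ± 583 to 9434 ± 106 (1.95, adjusted p = 0.0103). Without T_Dysf replicate 1 the count against Acute-7d was 2, and against Acute-2d it was 7 without Effector replicate 1 or Effector replicate 2. Between T_Dysf and Effector, where 8 of the 14 residency genes passed, *Zfp683* and *Prdm1* did not.

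Of 11 measured effector genes linked to T-bet, Eomes or Zeb2, 3 rose and 1 fell in T_Dysf against Acute-7d, 6 rose and 1 fell against Acute-2d, and 4 rose and 1 fell against Effector. *Gzma*, a granzyme, had a log2 fold change of 4.94 against Acute-7d (limma adjusted p = 0.00488), *Gzmb* of 2.41 (adjusted p = 0.00800) and *Cxcr3*, a chemokine receptor and T-bet target, of -1.77 (adjusted p = 0.00890). The other gene that rose against Acute-7d was *Ifng*. Left-out libraries moved the 3 rises to between 1 and 4, the lowest without Acute-7d replicate 1, Acute-7d replicate 2 or T_Dysf replicate 1. The 6 rises against Acute-2d became 2 without Acute-2d replicate 1 or T_Dysf replicate 1, 3 without T_Dysf replicate 2 and 4 without Acute-2d replicate 2. The 4 rises against Effector became 1 without T_Dysf replicate 1 or T_Dysf replicate 2 and 2 without Acute-7d replicate 1 or Acute-7d replicate 2. With the prefix term the rises were 1 against Acute-7d, 5 against Acute-2d and 0 against Effector, and the lower call held against Acute-2d only.

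Of 11 genes (IRF family, BATF partners and *Bhlhe41*), 1 rose (*Batf3*) and 2 fell (*Irf1*, *Irf5*) in T_Dysf against Acute-7d, and 3 fell against each of Acute-2d and Effector. *Irf1*, an interferon-induced factor, was at 22825 ± 8752 normalized counts in Acute-7d and 4729 ± 225 in T_Dysf (SD, n = 2, log2 fold change -2.22, limma adjusted p = 0.0310). *Irf5* was at 361 ± 28.1 and 126 ± 16.5 (-1.52, adjusted p = 0.0301). *Batf3*, a partner of IRF8 in dendritic cells, was at 3.19 ± 0.225 in Acute-7d, about 3 reads a library, and at 74.96 ± 4.70 in T_Dysf (adjusted p = 0.01999). The 2 lower calls became 1 without Acute-2d replicate 1 or Acute-2d replicate 2 and 0 without each of the Acute-7d and T_Dysf libraries, and the higher call was lost in part of these fits (0 to 1). With the prefix term neither direction had a call against Acute-7d or Effector, and 2 lower calls were left against Acute-2d. Of the 3 lower calls against Acute-2d, 1 was left without Acute-2d replicate 1, Acute-2d replicate 2 or T_Dysf replicate 1, and of those against Effector, 1 was left without T_Dysf replicate 1 or T_Dysf replicate 2. Of 5 Id and E protein genes, 1 fell against Acute-2d and Effector, which was *Id3*. Against Acute-7d limma called 0 over all genes, with 2 under an unadjusted p of 0.05 and 0 called by limma-voom. Among the genes that reached 50 normalized counts, limma called 1 of 4 there. Both *Id3* calls held without Effector replicate 1 or Effector replicate 2, and were lost without each of the other 6 libraries and with the prefix term.

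**Figure D4:**
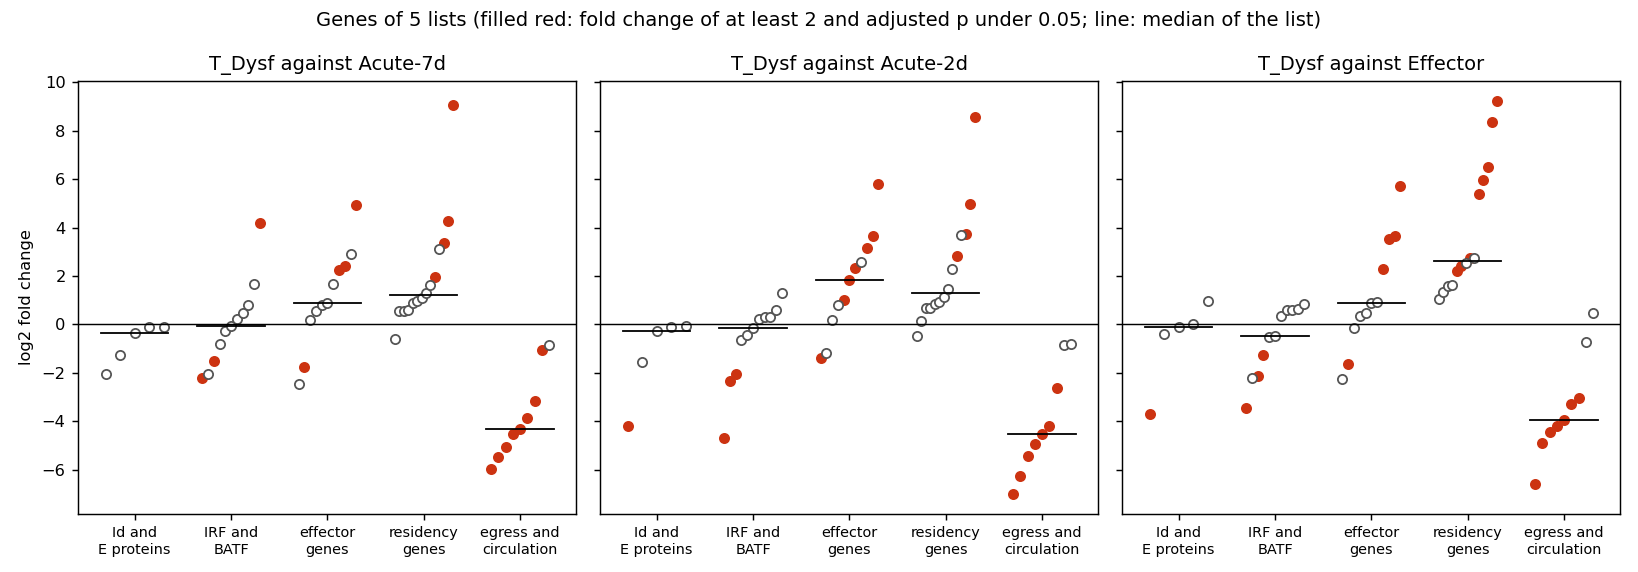
Log2 fold changes (y axis) of each measured gene of 5 lists for T_Dysf compared with each of the other 3 conditions, 1 point per gene, sorted within a list, with the median as a line. Filled red points mark a fold change of at least 2 with an adjusted p under 0.05. The egress and circulation genes lie mostly between -3 and -7 in all 3 comparisons, and 8 residency genes are filled against Effector.

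Over the 8 libraries, some members followed each other, given here as Pearson's r of log2 values and without a test since libraries of a condition share their treatment. The closest pairs were *Zfp683* and *Zeb2* (r = 0.864), *Prdm1* and *Zfp683* (0.816), *Zeb2* and *Irf8* (0.809) and *Id2* and *Bhlhe40* (0.712). The most opposed pairs were *Tbx21* and *Bhlhe40* (-0.875), *Zfp683* and *Zeb1* (-0.869), *Bhlhe40* and *Irf4* (-0.819) and *Id2* and *Irf4* (-0.744). Among all genes with a mean of at least 500 normalized counts, the nearest in pattern were *Arid5b* (0.993) and *Rapgef6* (0.992) for *Bhlhe40*, *Pcyt1a* (0.987) and *Pik3cg* (0.981) for *Zfp683*, *Kdm4a* (0.986) and *Ccl5* (0.985) for *Id2*, *Emc3* (0.982) and *Sprtn* (0.976) for *Zeb2*, and *Stat2* (0.979) and *Psmf1* (0.970) for *Irf4*. They were *Lsm4* (0.974) and *Rbm3-ps* (0.966) for *Tbx21*, *Sgcb* (0.971) and *Lrch1* (0.967) for *Zeb1*, *Acbd5* (0.966) and *Hsdl2* (0.965) for *Irf8*, *Ccdc88c* (0.929) and *Ercc6* (0.897) for *Eomes*, and *Rab18* (0.905) and *Srpk2* (0.905) for *Prdm1*. The nearest genes of *Prdm1* and *Eomes* were the least alike.

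In 4 of the 10 genes an annotated antisense gene overlaps the exons, and reads of the pair cannot be told apart where counting ignores strand, which is not stated. The overlap was 118 bases with *Gm33460* for *Eomes*, 198 bases with *Gm10125* for *Zeb1*, 653 bases with *Zeb2os* for *Zeb2* and 118 bases with *0610040F04Rik* for *Bhlhe40*. The mean of these partners over the 8 libraries was 8.09, 7.59, 2.05 and 0.776 normalized counts in that order.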

How the data were processed

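RNA-Seq of sorted P14 CD8 T cells was analysed in 8 libraries, 2 in each of 4 conditions taken from the labels. The authors mapped the reads to mm10 by STAR, counted them over RefSeq transcripts in Partek Flow, and scaled the counts by the median ratio of DESeq2. The deposited values are a signal, read counts divided by a size factor. Of values below 1000 reads, 53.3% in T_Dysf replicate 1 and 73.2% to 75.8% in the other libraries lay within 0.02 reads of a whole read. No count model was therefore fitted. Versions of STAR and DESeq2 are not given in the sources used here. Genes under a maximum of 50 normalized counts are in the table. The methods describe removal under a maximum of 50 before normalization, so a filter at 50 on the normalized counts was only a near equivalent, run as an alternative.

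The test was limma 3.58.1 in R 4.3.3 (lmFit, eBayes with trend) on log2(normalized count + 1), so that folds of low genes are understated, with all 24303 genes, 4 group means and 4 residual degrees of freedom. Tests were two-sided with Benjamini-Hochberg adjustment over all genes. The procedure was tested on simulated data. The 2 libraries of a condition are labelled as biological replicates without a stated separate source, and p-values measure only the spread between these libraries, which may be technical in part. The 2 Acute-7d libraries differ in mouse sex and so come from different mice. The correlation of replicate differences between conditions was -0.199 to 0.197 in 6 pairs of conditions, so replicate numbers were not taken as pairs. Alternatives were other pseudocounts, filters, scalings, designs, limma-voom, a term for the label prefix RESUB and leaving out each library. The counts of the 5 lists without 1 library or with that term were added after the data were seen.

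The 10 members, the lists and the tests were chosen with earlier results of these data known. All members are named in full, with the 2 called genes in each direction of highest mean in each list for T_Dysf against Acute-7d, and the 2 genes most like each member. *Hpgds*, *Litaf* and *Ifng* were named after their values were seen. Exon lengths and positions came from GENCODE vM21 (GRCm38). Tables and figures were made in Python 3.11.15 with matplotlib 3.10.9, pandas 2.3.3 and numpy 2.4.6. Protein sequences were not used here. One marker gene, and the summed list that holds it, is not reported here.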

Additional observations from a re-analysis of the deposited data

How the results depend on the processing

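No called value of a member changed sign under any alternative, and no rescaling moved the median of all genes by over 0.1. The counts of called members depended strongly on the setting. They are given below for T_Dysf against Acute-7d (1 as reported), T_Dysf against Acute-2d (1), T_Dysf against Effector (3), Effector against Acute-7d (2), Effector against Acute-2d (3) and Acute-7d against Acute-2d (0). Leaving out 1 library gave 0 to 0, 0 to 1, 0 to 2, 0 to 2 and 0 to 1 in the first 5, where an arm of 1 library is assumed to vary like the others. Fitting only the 2 groups compared gave 0, 2, 0, 0 and 0. The replicate block gave 0, 0, 1, 1 and 2, and the numbers were not taken as pairs. The RESUB term gave 0, 0, 0, 1 and 0. Over all genes the calls in these 5 comparisons were 1353, 1787, 2241, 1958 and 2135 as reported. They fell to 912, 1300, 465, 155 and 235 in the fits of the 2 groups. With the replicate block they were 891, 1344, 1757, 1431 and 1545, and with the RESUB term 541, 1378, 386, 808 and 350. Filtering at 50 on either the mean or the maximum gave 2, 4, 4, 6 and 4, limma-voom 3, 4, 4, 6 and 4, and an unadjusted p 3, 4, 4, 6, 4 and 1. A pseudocount of 0.1 and equal 75th percentiles gave 0 for T_Dysf against Acute-7d, and quantile normalization gave 2 for T_Dysf against Acute-2d. The cause was not tested, except that filters adjust over fewer genes. Leaving out a library and adding a block or term also lower the residual degrees of freedom.

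Among values that were not called, the sign turned for *Bhlhe40* in T_Dysf against Acute-7d (0.0949 with quantile normalization, 0.15 with the RESUB term), *Zeb2* in T_Dysf against Effector (0.0279 with equal 75th percentiles, 0.0485 with quantile normalization) and, with the RESUB term, *Prdm1* in Effector against Acute-7d (-0.18) and Acute-2d (-0.0039) and *Eomes* in Effector against Acute-2d (-0.28). Without 1 library it also turned, with these lowest and highest values, in T_Dysf against Acute-7d for *Tbx21* (-0.24 to 0.22), *Bhlhe40* (-0.19 to 0.15) and *Irf4* (-0.15 to 0.33), in T_Dysf against Acute-2d for *Tbx21* (-0.0279 to 0.69) and *Irf4* (-0.47 to 0.19), in T_Dysf against Effector for *Prdm1* (-0.22 to 0.70), *Zfp683* (-0.39 to 0.30), *Zeb1* (-0.19 to 0.30) and *Zeb2* (-0.11 to 0.0868), in Effector against Acute-7d for *Prdm1* (-0.18 to 0.99), in Acute-7d against Acute-2d for *Tbx21* (-0.0151 to 0.70), *Zeb1* (-0.42 to 0.14), *Zeb2* (-0.0775 to 0.78), *Irf4* (-0.57 to 0.10) and *Irf8* (-0.82 to 0.0127).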
